A study of Mus musculus with 4 samples.

Results

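The genes described here are 10 genes of the TREM2 pathway and of the activating Fc receptors: Trem2, Tyrobp, Fcer1g, Fcgr1, Fcgr3, Fcgr4, Cst7, Lpl, Spp1 and Axl. They were taken by name from the deposited gene tables of both brain regions, and all 10 were found among the 19040 genes that both tables hold. Their levels were followed in the cells labelled MG (microglia) and MAC (brain macrophages) by region and genotype, and then in the other deposited cell type labels. Droplet-based sequencing of RNA from single cells (10x Genomics, 3' version) had been carried out on cells dissociated from adult mouse brain with a protocol for glial and vascular cells. The series is titled for astrocytes in synucleinopathy, the group of disorders in which alpha-synuclein aggregates.

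There were 4 groups with 1 library each. Transgenic frontal cortex and transgenic midbrain came from mice of the strain labelled Hua-Syn(A53T), a human alpha-synuclein transgene with a substitution found in familial Parkinson's disease. Wildtype frontal cortex and wildtype midbrain came from littermates labelled C57BL/6. All mice were 6 to 9 months old, no other allele or treatment is labelled for either genotype, and the promoter that drives the transgene is not given in the sources used here. Each group held 3 mice according to the series' design. The labels say that both regions came from the same mice, yet they count 3 mice for frontal cortex samples and 0 for midbrain samples. The cell tables name no mouse, so the mice of a group were treated as 1 pooled sample. Each comparison therefore sets 1 library against another, no p-value is given, and the 95% intervals cover counting error only.

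TREM2 is a surface receptor of microglia that binds lipids, lipoproteins and cell debris. It has no signalling tail of its own and signals through the adaptor TYROBP (DAP12), whose ITAM motif recruits the kinase SYK. Activating Fc receptors bind the constant part of IgG and use a related ITAM adaptor, the FcR gamma chain encoded by Fcer1g. In mouse models of amyloid disease, microglia that lie at plaques switch on Cst7, Lpl, Spp1 and Axl in a manner that depends on Trem2, a state known as disease-associated microglia.

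The libraries held 1445 transgenic and 1912 wildtype MG cells in frontal cortex, and 806 transgenic and 1158 wildtype MG cells in midbrain. MAC cells were fewer, at 85 transgenic and 112 wildtype in frontal cortex and 70 transgenic and 157 wildtype in midbrain. Median depth per MG cell was 7404 unique molecular identifiers (UMIs, each 1 captured RNA molecule) in transgenic and 7373 in wildtype frontal cortex, and 8318 in transgenic and 6749 in wildtype midbrain. The labels held against their markers: 10 of 10 microglial markers were highest in MG and 12 of 12 macrophage markers were highest in MAC. RNA of other cell types was present in MG cells in unequal amounts, given here for the 4 marker lists with the highest sums after the myeloid ones. The 8 astrocyte markers summed to 608 CPM in transgenic and 316 CPM in wildtype frontal cortex MG, and to 349 CPM in transgenic and 661 CPM in wildtype midbrain MG, where CPM is counts per 1000000 of the summed UMIs. The 5 erythroid markers summed to 709 CPM in transgenic and 44.1 CPM in wildtype frontal cortex MG, and to 1700 CPM in transgenic and 47.4 CPM in wildtype midbrain MG. Endothelial markers summed to 517 CPM in transgenic and 881 CPM in wildtype frontal cortex MG and to 168 CPM in transgenic and 422 CPM in wildtype midbrain MG. Choroid plexus markers were at 20.2 CPM in transgenic and 15.0 CPM in wildtype frontal cortex MG and at 2560 CPM in transgenic and 4692 CPM in wildtype midbrain MG. Between 3 and 15 cell barcodes were shared by any pair of libraries.

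Promoter sequence is shown for Trem2 and the activating Fc receptor genes because Fcgr4 differed between the genotypes where its relatives did not. The motif marked in them is that of PU.1, the factor that specifies myeloid cells, whose gene Spi1 had the pattern over cell labels most like those of the adaptors Tyrobp and Fcer1g, though not of the receptors. PU.1 binds a purine-rich core, GAGGAA. The 100 bases before the RefSeq transcription start are printed 5' to 3' on the strand of the gene (RefSeq, GRCm38.p6), and the capitals mark GAGGAA or its reverse complement. The Fcgr4 window is chr1:171018826-171018925 on the plus strand, that of Fcgr1 is chr3:96293970-96294069 on the minus strand, that of Fcgr3 is chr1:171059404-171059503 on the minus strand, and that of Trem2 is chr17:48346301-48346400 on the plus strand.
Fcgr4: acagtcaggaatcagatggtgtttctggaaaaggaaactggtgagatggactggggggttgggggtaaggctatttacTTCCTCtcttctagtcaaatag
Fcgr1: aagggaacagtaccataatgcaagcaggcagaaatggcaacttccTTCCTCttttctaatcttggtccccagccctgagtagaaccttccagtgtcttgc
Fcgr3: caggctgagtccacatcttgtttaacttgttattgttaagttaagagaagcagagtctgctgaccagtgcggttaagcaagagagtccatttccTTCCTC
Trem2: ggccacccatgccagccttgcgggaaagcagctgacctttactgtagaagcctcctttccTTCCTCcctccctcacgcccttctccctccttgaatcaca

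The core lay 22 bases before the start site in Fcgr4, 55 in Fcgr1 and 40 in Trem2. Fcgr3 has 2 start sites in the table, with the core 15 bases before the one and 6 before the other, for which the window is printed. Both start sites lie inside the span that the gene annotation gives Fcgr3 (171051174 to 171064935, minus strand), downstream of its 5' end. The sequence before that 5' end is not printed. Of the 10 genes, 8 had an entry in the promoter table, and 6 of these 8 (Axl, Fcgr1, Fcgr3, Fcgr4, Spp1 and Trem2) held the core on either strand, and Cst7 and Fcer1g did not, within 250 bases before and 50 bases after the start. Among all 32851 promoters of the table, 28.3% held it in the same 300 bases and 9.82% in the 100 bases printed. Offsets run from the first base of the match on the gene's strand. Fcgr4 also held GAAA, any 2 bases and GAAA again, the spacing of an interferon-response element, 73 bases before its start, and Spp1 held it 157 bases before. That motif was in 3.44% of all promoters over the 300 bases and in 0.983% over the 100 bases, and in neither gene did it overlap the GAGGAA core. The AP-1 motif TGANTCA, in 7.81% of all promoters, lay 9 bases before the start of Trem2 and 6 before that of Cst7, and CACGTG, in 7.15% of all promoters, was in 0 of the 8. These matches describe letters in a window and not binding.

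The annotation (GENCODE, GRCm38, the assembly that mm10 names) places Trem2 on chromosome 17 (48346401 to 48354147, plus strand) and Tyrobp on chromosome 7 (30413760 to 30417585, plus strand). Fcgr4 (171018920 to 171029761, plus strand), Fcgr3 (171051174 to 171064935, minus strand) and Fcer1g (171229572 to 171234365, minus strand) are neighbours on chromosome 1, and Fcgr1 is on chromosome 3 (96282909 to 96293969, minus strand). Cst7 is on chromosome 2 (150570415 to 150578944, plus strand), Lpl on chromosome 8 (68880491 to 68907448, plus strand), Spp1 on chromosome 5 (104435118 to 104441050, plus strand) and Axl on chromosome 7 (25757273 to 25788705, minus strand). All 10 are protein-coding, and counts were deposited per gene, so exons and isoforms are not resolved. Fcgr3 and Fcgr4 are paralogs of each other and of the inhibitory receptor gene Fcgr2b, and their counts are uncertain as far as reads could fall to a copy.

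The genes fell into 2 kinds in microglia. The receptor Trem2, the adaptors Tyrobp and Fcer1g and the Fc receptors Fcgr1 and Fcgr3 were found in most MG cells of every library, and transgenic and wildtype MG differed by less than 1.2 times in both regions. Fcgr4, Cst7, Lpl, Spp1 and Axl were found in few MG cells, and it was these that passed 1.2 times in at least 1 region. A gene was called higher or lower at 1.2 times with at least 20 UMIs over both libraries. The call uses the ratio alone, so counting error carries a gene with few UMIs past it more readily than one with many. No share of all genes at matched levels was computed. In frontal cortex MG, 5 of the 10 genes were called higher in transgenic and 0 lower, while 17.1% of all 12953 genes were called higher and 15.5% lower. Their median log2 ratio (transgenic over wildtype) was 0.33, against -0.02 over all genes. In midbrain MG, 2 of 10 were called higher (Lpl and Fcgr4) and 2 lower (Spp1 and Axl), against 13.3% of all 12249 genes higher and 21.8% lower, and the median was 0.03 against -0.04 over all genes. At 1.5 times, 4 of 10 were higher in frontal cortex and 1 in midbrain, against 7.84% and 3.68% of all genes, and 0 were lower in frontal cortex and 2 in midbrain, against 4.22% and 10.4%.

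**Figure D1:**
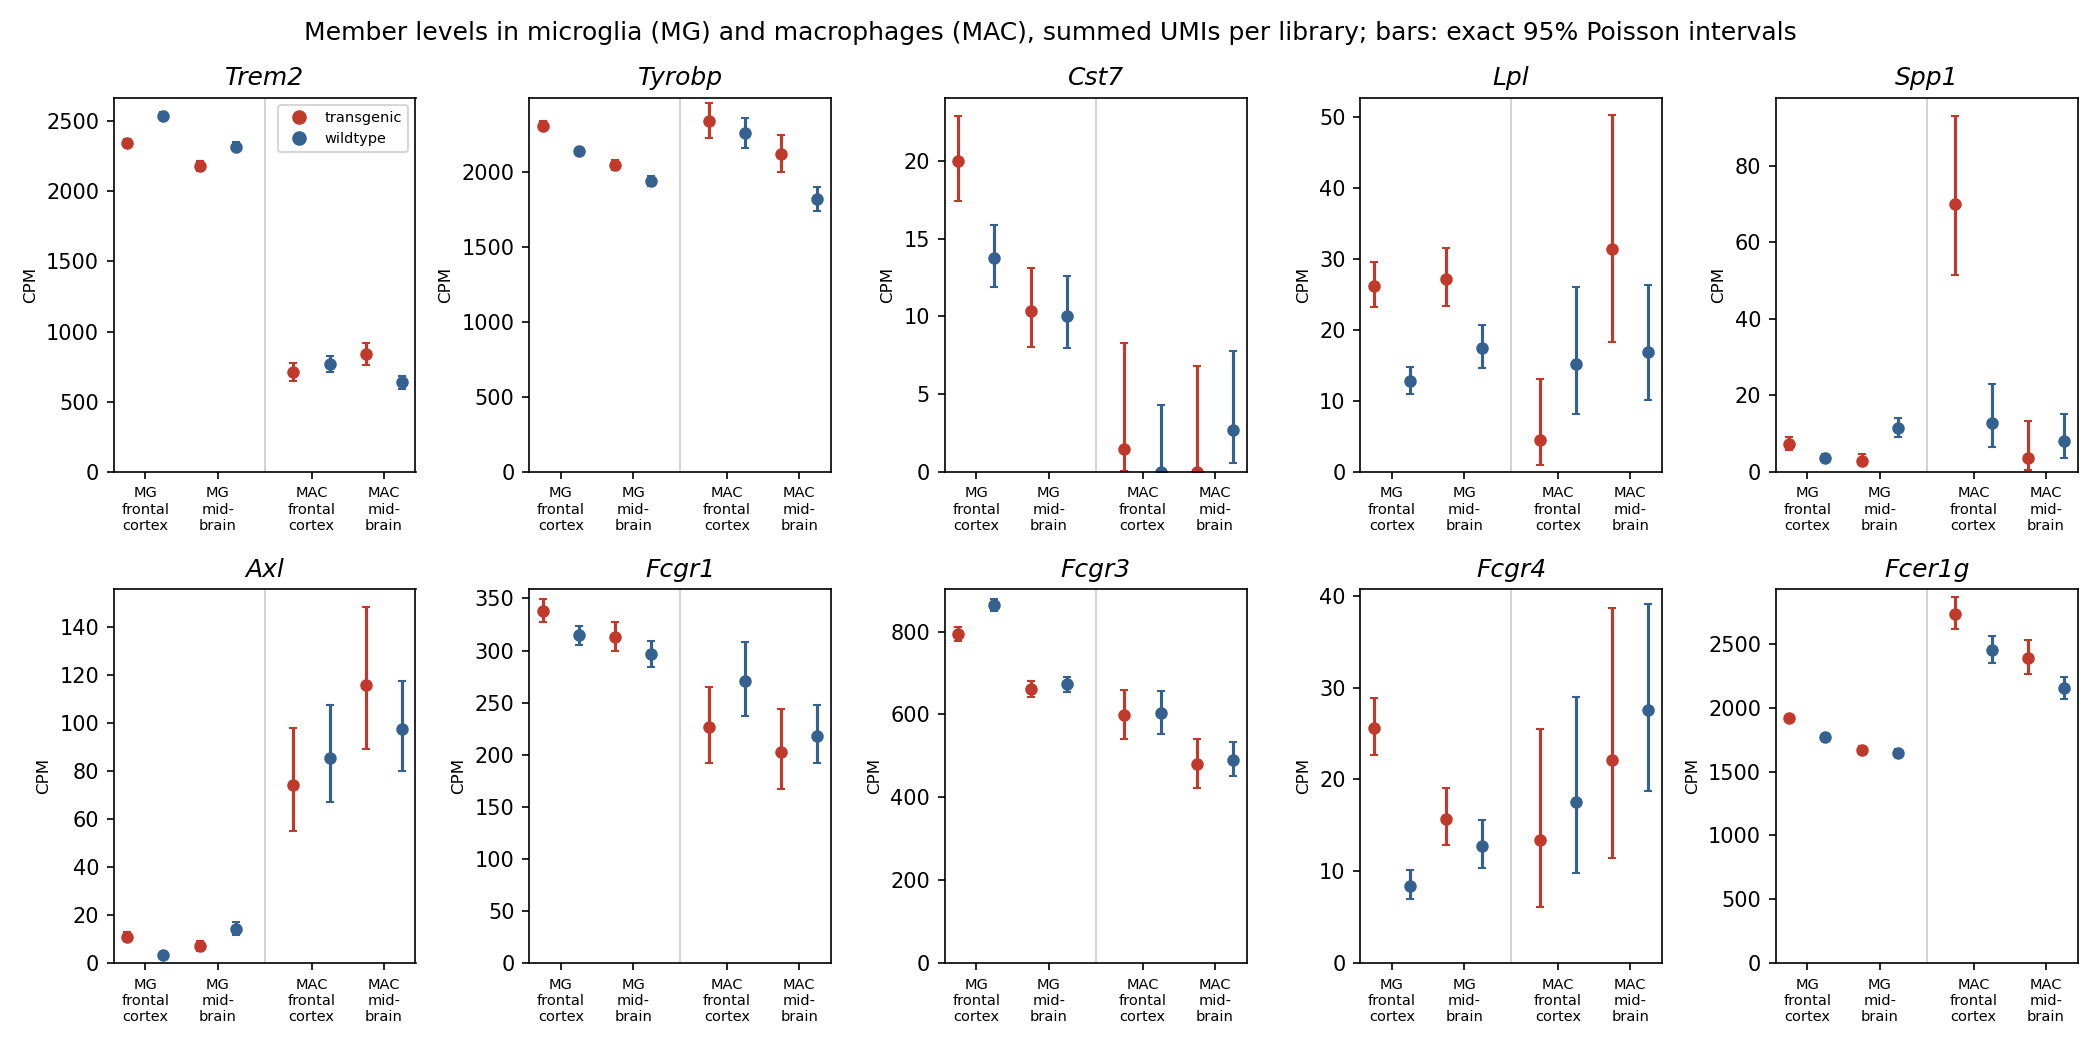
Level of each gene (CPM of summed UMIs, vertical axis from 0, scale differing by gene) in MG and MAC of frontal cortex and midbrain, transgenic left of wildtype. Points are single libraries and bars are exact 95% Poisson intervals. Trem2, Tyrobp, Fcgr1, Fcgr3 and Fcer1g lay close between genotypes in MG, while Fcgr4 was at 25.6 CPM in transgenic and 8.43 CPM in wildtype frontal cortex MG.

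Trem2, the receptor itself, was at 2343 CPM in transgenic and 2539 CPM in wildtype frontal cortex MG, and at 2181 CPM in transgenic and 2318 CPM in wildtype midbrain MG. It was slightly lower in the transgenic library in both regions, by a log2 ratio of -0.12 (-0.14 to -0.09) in frontal cortex and -0.09 (-0.12 to -0.06) in midbrain. Counting error alone was smaller than these differences, but both were within 1.2 times and no replicate library gauges them. Tyrobp, its adaptor, was at 2309 CPM in transgenic and 2138 CPM in wildtype frontal cortex MG, and at 2048 CPM in transgenic and 1939 CPM in wildtype midbrain MG. It was slightly higher in the transgenic library of both regions, with log2 ratios of 0.11 (0.09 to 0.14) and 0.08 (0.05 to 0.11), so the receptor and its adaptor leaned in opposite directions. The same lean was present in each deposited microglial cluster of frontal cortex but one: in cluster 8 Trem2 was at 1734 CPM in transgenic and 1693 CPM in wildtype cells. In cluster 7 the Tyrobp interval spanned 0 (0.04, -0.01 to 0.10). In midbrain cluster 2, with 489 transgenic and 728 wildtype cells, Trem2 was lower (-0.15, -0.19 to -0.11) but Tyrobp did not lean (-0.01, -0.05 to 0.03). Midbrain clusters 15, 16 and 21 had opposite signs for the 2 genes, but in clusters 16 and 21 all intervals spanned 0.

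Fcer1g, the adaptor of the Fc receptors, was at 1917 CPM in transgenic and 1773 CPM in wildtype frontal cortex MG (log2 ratio 0.11, 0.09 to 0.14). In midbrain MG it was at 1667 CPM in transgenic and 1647 CPM in wildtype (0.02, -0.02 to 0.05). Fcgr1, the high-affinity IgG receptor, was at 338 CPM in transgenic and 315 CPM in wildtype frontal cortex MG, and at 313 CPM in transgenic and 296 CPM in wildtype midbrain MG. Its ratios were 0.11 (0.04 to 0.17) and 0.08 (-0.01 to 0.17), too small for a call. Fcgr3, a low-affinity activating receptor, was at 793 CPM in transgenic and 864 CPM in wildtype frontal cortex MG (-0.12, -0.16 to -0.08), and at 661 CPM in transgenic and 672 CPM in wildtype midbrain MG (-0.02, -0.08 to 0.03). Of the classical activating Fc receptors, Fcgr1 and Fcgr3 thus stayed within 1.2 times between the genotypes in MG of both regions.

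Fcgr4 did not. This activating receptor of myeloid cells was at 25.6 CPM in transgenic and 8.43 CPM in wildtype frontal cortex MG, from 269 and 120 UMIs. The transgenic library was 3.04 times higher, a log2 ratio of 1.60 (1.29 to 1.93). In midbrain MG it was at 15.7 CPM in transgenic and 12.8 CPM in wildtype (log2 ratio 0.30, -0.12 to 0.71), where the interval spans 0. The ratio was smaller in midbrain than in frontal cortex by 1.30 (difference -1.30, -1.81 to -0.80), beyond counting error. Wildtype frontal cortex MG was the lowest of the 4 groups and transgenic frontal cortex MG the highest, with both midbrain groups between them.

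Fcgr4 averaged under 1 UMI per cell, so the share of cells with a UMI follows its level. After each cell was thinned to 3000 UMIs, 97 of 1252 transgenic frontal cortex MG cells held an Fcgr4 UMI (7.75%, 6.33 to 9.37, exact binomial) and 38 of 1805 wildtype cells did (2.11%, 1.49 to 2.88). In midbrain the thinned shares were 5.04% (3.52 to 6.98) in transgenic and 3.82% (2.71 to 5.23) in wildtype MG. Without thinning, 14.6% of transgenic and 5.54% of wildtype frontal cortex MG cells held a UMI, with 1.27 and 1.13 UMIs per such cell. The 5 MG cells with most Fcgr4 UMIs held 19 of 269 in transgenic and 12 of 120 in wildtype frontal cortex, and without them the log2 ratio was 1.65. In endothelial cells (EC), which should lack the receptor, 0 thinned cells of any library held an Fcgr4 UMI, with upper limits of 0.171% to 0.541% (exact binomial), so the MG shares were above this background. Median UMIs per EC cell were 8530 in transgenic and 8181 in wildtype frontal cortex, so EC cells were at least as deep as MG cells there. Among markers of other myeloid cells, those of MAC summed to 211 CPM in transgenic and 208 CPM in wildtype frontal cortex MG. Of these sums Stab1 alone gave 198 CPM in transgenic and 193 CPM in wildtype, and each other MAC marker was at 8.86 CPM or less. Markers of monocytes summed to 36.9 CPM in transgenic and 42.4 CPM in wildtype. Those of neutrophils summed to 3.81 CPM in transgenic and 2.88 CPM in wildtype, with 4 of 6 detected in each and Mmp8 at 0 in both, and those of dendritic cells to 9.14 CPM in transgenic and 8.29 CPM in wildtype. The part of these cells in the Fcgr4 ratio was not tested. Cells that hold at least 4 UMIs of markers of astrocytes, endothelial, mural, oligodendrocyte or neuronal cells were then left out. In the rest, 20 transgenic and 21 wildtype Fcgr4 UMIs remained and gave a log2 ratio of 1.31. That cut was a count and not a share of a cell's UMIs, so deep cells were left out more readily. No interval was computed for the ratio in the remaining cells. The erythroid markers were higher in transgenic MG of both regions, as Fcgr4 and Lpl were, and their part was not tested.

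The Fcgr4 ratio was in the same direction in 4 of 4 deposited MG clusters of frontal cortex. Cluster 2 had 32.5 CPM in 414 transgenic and 8.52 CPM in 773 wildtype cells (log2 ratio 1.93, 1.45 to 2.43). Cluster 3 had 26.5 CPM in 533 transgenic and 9.75 CPM in 503 wildtype cells (1.44, 0.87 to 2.05), and cluster 7 had 16.4 CPM in 272 transgenic and 7.76 CPM in 464 wildtype cells (1.08, 0.31 to 1.86). In the shallow cluster 8, 12 transgenic and 6 wildtype UMIs gave 1.27 (-0.25 to 2.97), an interval that spans 0. Cluster 3 was the largest of transgenic MG and cluster 2 the largest of wildtype MG, so the clusters were filled unequally, and with the 4 clusters weighted alike the log2 ratio was 1.49. In midbrain the transgenic level was above the wildtype level in 3 of 4 MG clusters and below it in cluster 16, and every interval spanned 0.

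**Figure D2:**
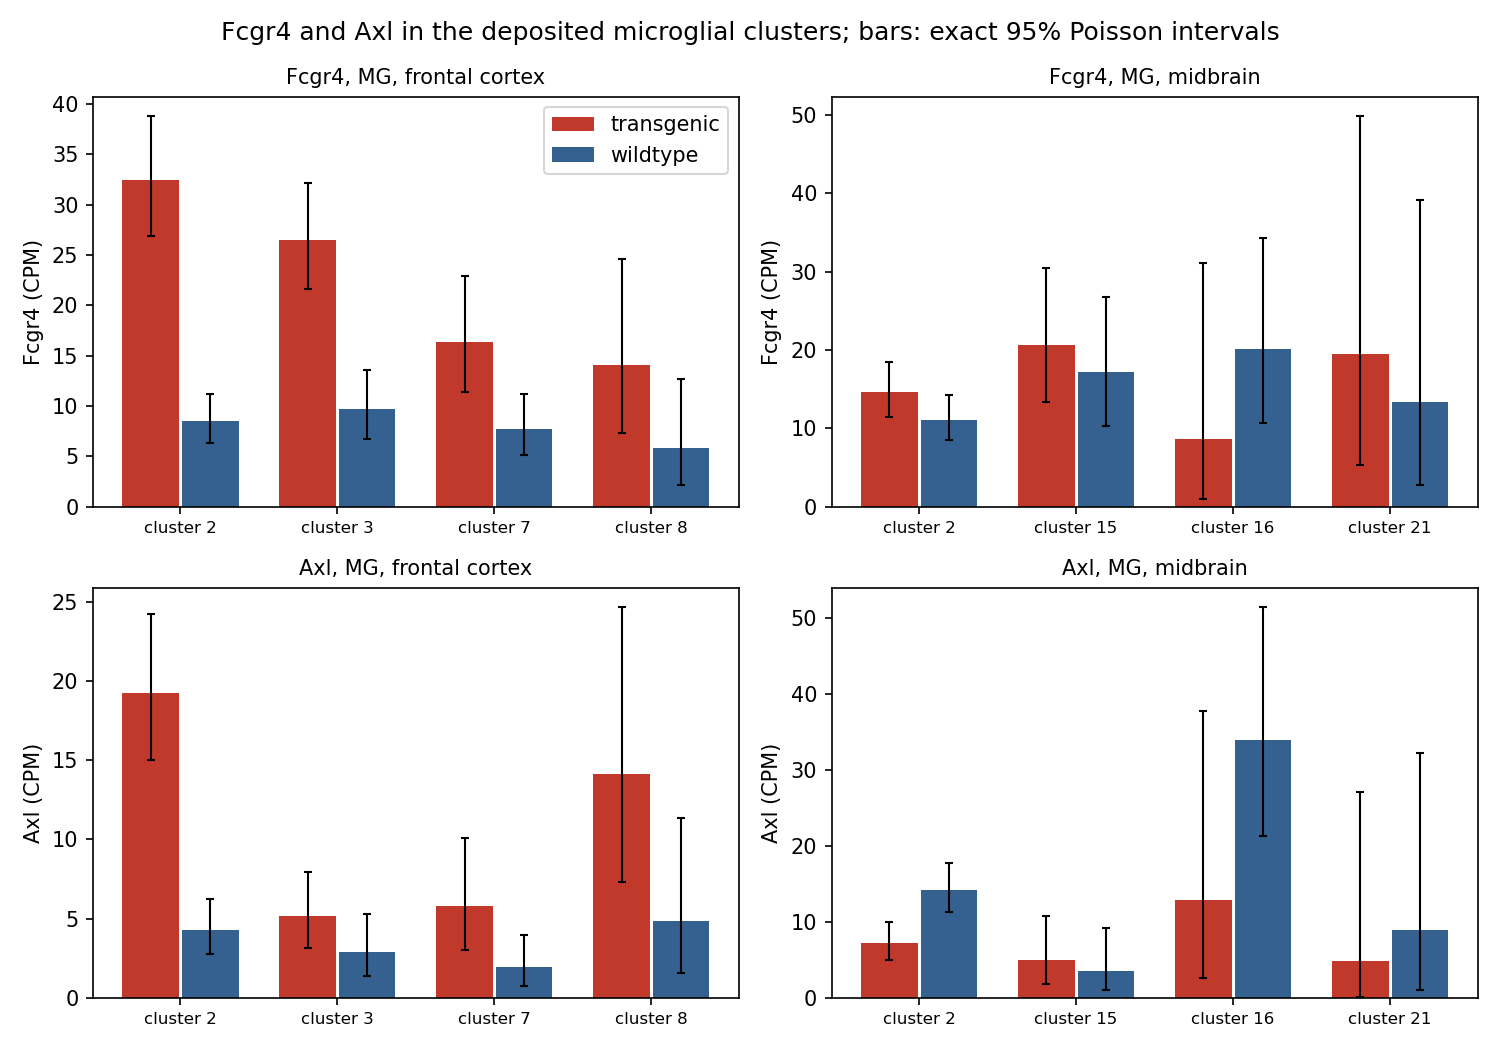
Fcgr4 (top) and Axl (bottom) in CPM in each deposited MG cluster of frontal cortex (left) and midbrain (right), transgenic bars left of wildtype bars, with exact 95% Poisson intervals and axes from 0. In frontal cortex Fcgr4 was higher in transgenic cells of clusters 2, 3, 7 and 8, while in midbrain the bars overlapped within their intervals.

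Most cells with Fcgr4 also held the other components. Of the 97 thinned transgenic frontal cortex MG cells with Fcgr4, 97 held Trem2, 95 held Fcer1g, 81 held Fcgr3 and 61 held Fcgr1. The share with Fcgr1 was 62.9% among cells with Fcgr4 and 60.0% among those without, and the share with Fcgr3 was 83.5% and 87.3%, with overlapping intervals. Axl was in 7 of the 97 cells with Fcgr4 (7.22%, 2.95 to 14.3) and in 1.99% (1.27 to 2.97) of those without, intervals that overlap at their ends. In wildtype frontal cortex MG Axl was in 0 of 38 cells with Fcgr4 and 0.905% of those without. In midbrain MG it was in 2 of 34 transgenic and 2 of 37 wildtype cells with Fcgr4, against 1.72% and 2.69% of those without. These intervals overlap too. In transgenic frontal cortex MG, Cst7 was in 7 of the 97 cells with Fcgr4 (7.22%) and in 5.11% of those without, and Lpl in 5 (5.15%) and 2.94%, with intervals that overlap. All 3 receptors Fcgr1, Fcgr3 and Fcgr4 were found together in 50 of 1252 transgenic and 22 of 1805 wildtype frontal cortex MG cells, and in 20 of 674 transgenic and 19 of 968 wildtype midbrain MG cells. Since Fcgr1 and Fcgr3 were about as frequent with Fcgr4 as without, these counts largely restate the Fcgr4 shares and are not a further result.

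Lpl, which encodes the lipoprotein lipase that frees fatty acids from triglycerides, was at 26.2 CPM in transgenic and 12.7 CPM in wildtype frontal cortex MG. In midbrain MG it was at 27.1 CPM in transgenic and 17.5 CPM in wildtype. Both transgenic libraries were above both wildtype libraries, with log2 ratios of 1.04 (0.77 to 1.32) in frontal cortex and 0.63 (0.30 to 0.97) in midbrain. The ratios differed between regions by -0.41 (midbrain minus frontal cortex, -0.83 to 0.01), an interval that includes 0. Few cells carried much of it: the 5 highest cells held 156 of 275 UMIs in transgenic and 110 of 181 in wildtype frontal cortex MG, including 1 cell with 80 and 1 with 77. Without these cells the log2 ratio was 1.18 in frontal cortex and 0.53 in midbrain. Thinned shares of MG cells with Lpl were 3.12% in transgenic and 1.83% in wildtype frontal cortex, and 6.08% in transgenic and 3.31% in wildtype midbrain. In EC they were between 0.128% and 0.441%, below every MG share.

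Cluster 2 held 219 of 275 transgenic and 153 of 181 wildtype Lpl UMIs of frontal cortex MG, at 59.2 CPM in transgenic and 25.1 CPM in wildtype cells (log2 ratio 1.24, 0.94 to 1.55). In cluster 8 there were 24 transgenic UMIs and 1 wildtype UMI (4.86, 2.24 to 10.2). The ratios in clusters 3 and 7 were 0.55 and -0.07, with intervals that span 0. In midbrain, cluster 2 was at 31.0 CPM in transgenic and 18.1 CPM in wildtype cells (0.77, 0.40 to 1.15), and in cluster 16 the transgenic value was below the wildtype value, from 2 and 18 UMIs (-1.69, -4.84 to 0.37).

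Cst7, which encodes cystatin F, an inhibitor of lysosomal cathepsins, was at 20 CPM in transgenic and 13.8 CPM in wildtype frontal cortex MG (log2 ratio 0.54, 0.25 to 0.83). In midbrain MG it was at 10.3 CPM in transgenic and 10.1 CPM in wildtype (0.04, -0.45 to 0.53). It was called higher in frontal cortex and was within 1.2 times in midbrain, yet the difference between the regions, -0.50 (-1.05 to 0.05), did not leave out 0. Thinned shares of cells with Cst7 were 5.27% in transgenic and 3.38% in wildtype frontal cortex MG, and 2.23% in transgenic and 2.27% in wildtype midbrain MG. By cluster, the difference lay in cluster 2 of frontal cortex, at 34.4 CPM in transgenic and 18.5 CPM in wildtype cells (0.89, 0.52 to 1.27), and in cluster 8, with 16 transgenic and 2 wildtype UMIs (3.27, 1.19 to 6.44). Clusters 3 and 7 had log2 ratios of -0.03 and -0.20.

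Axl, a receptor tyrosine kinase through which phagocytes clear dying cells, was at 11 CPM in transgenic and 3.37 CPM in wildtype frontal cortex MG. In midbrain MG the order was the other way, at 6.94 CPM in transgenic and 14.2 CPM in wildtype. The log2 ratios were 1.70 (1.2 to 2.22) in frontal cortex and -1.04 (-1.57 to -0.52) in midbrain, a difference of -2.73 (-3.43 to -2.04). The summed astrocyte markers in MG differed in the same direction as Axl, with log2 ratios of 0.94 in frontal cortex and -0.92 in midbrain, endothelial and choroid plexus markers were also lower in transgenic midbrain MG, and astrocytes themselves held more Axl than MG did, at 56.3 to 77.9 CPM over the 4 libraries. The astrocyte markers in MG were 608 CPM at most, against at least 14505 CPM in the astrocytes (AC). Cells with RNA of other types were also left out, by the same count and markers as for Fcgr4, which takes out deep cells more readily. Choroid plexus, erythroid, OPC and fibroblast markers were not part of that cut. Then 10 transgenic and 16 wildtype Axl UMIs remained in frontal cortex and gave a log2 ratio of 0.70, without an interval. In midbrain 9 transgenic and 23 wildtype UMIs remained and gave -1.06. The part of RNA from astrocytes and other cells in the Axl ratios beyond these values was not tested.

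Thinned shares of MG cells with Axl were low, at 2.40% (1.62 to 3.40) in transgenic and 0.886% (0.507 to 1.44) in wildtype frontal cortex, and 1.93% in transgenic and 2.79% in wildtype midbrain. In EC the shares were between 0.735% and 1.17%, so the wildtype frontal cortex share was no higher than in endothelial cells. In frontal cortex the Axl ratio was positive in 4 of 4 MG clusters, led by cluster 2 with 19.2 CPM in transgenic and 4.26 CPM in wildtype cells (log2 ratio 2.17, 1.51 to 2.88). In midbrain cluster 2 it was at 7.24 CPM in transgenic and 14.3 CPM in wildtype cells (-0.98, -1.59 to -0.39), and the other midbrain clusters held 25 or fewer Axl UMIs each.

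Spp1, which encodes osteopontin, a secreted ligand of integrins and CD44, was at 7.33 CPM in transgenic and 3.51 CPM in wildtype frontal cortex MG, and at 2.93 CPM in transgenic and 11.5 CPM in wildtype midbrain MG. The log2 ratios were 1.06 (0.53 to 1.60) and -1.97 (-2.77 to -1.24), opposite in the regions. Both rested on a handful of cells: 58 of 77 UMIs of transgenic frontal cortex MG were in 5 cells, and 60 of 88 UMIs of wildtype midbrain MG were in 1 cell. Without the 5 highest cells of each library the log2 ratio was 0.10 in frontal cortex and 0.24 in midbrain. Thinned shares of MG cells with Spp1 were 0.719% in transgenic and 0.831% in wildtype frontal cortex, and 1.34% in transgenic and 1.14% in wildtype midbrain, against 0.308% to 0.441% in EC. The shares thus lay close between the genotypes in both regions.

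**Figure D3:**
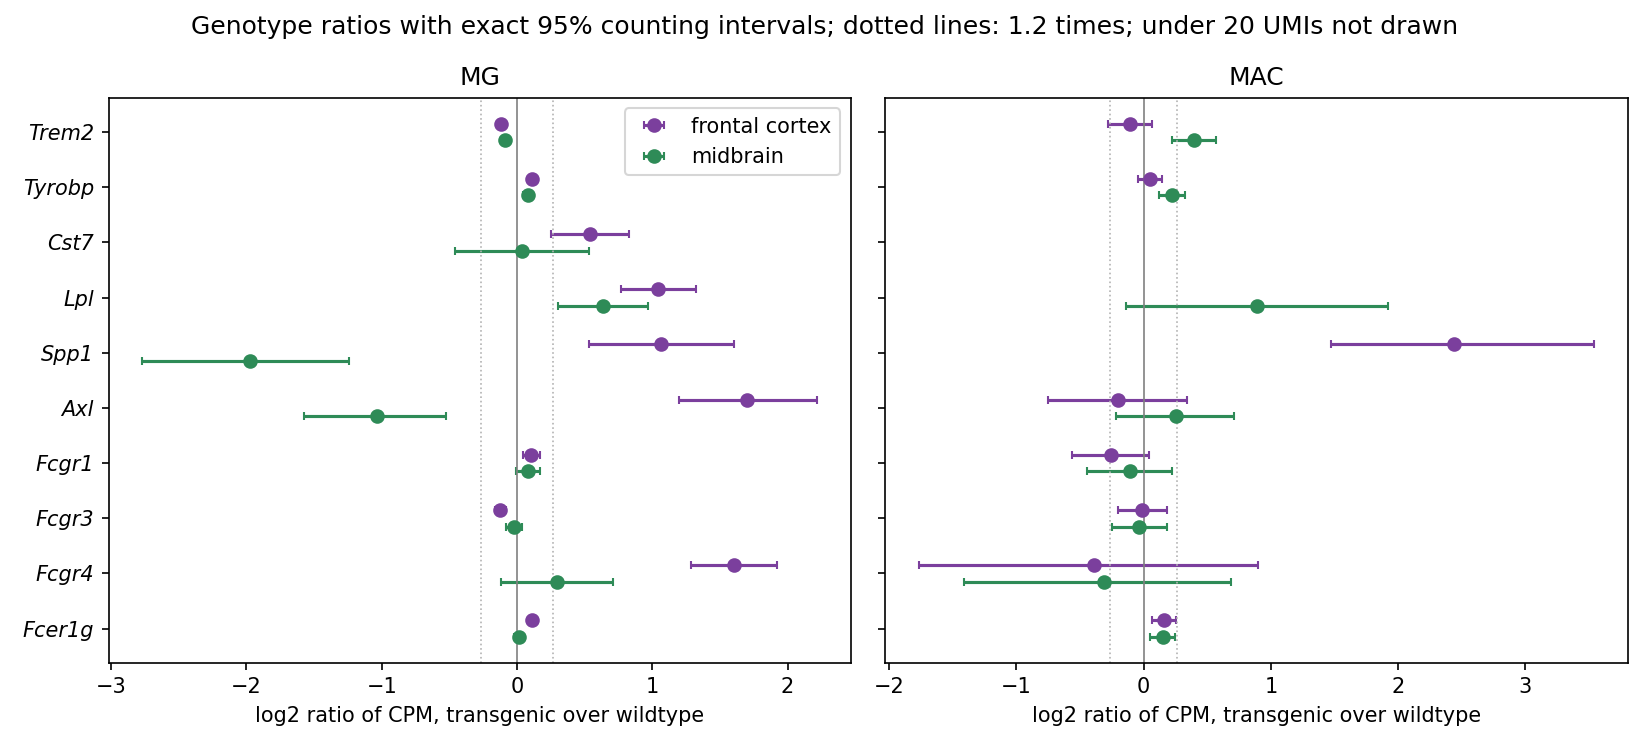
Log2 ratio of CPM, transgenic over wildtype, for each gene in MG (left) and MAC (right), with exact 95% counting intervals, frontal cortex above midbrain in each row. The dotted lines mark 1.2 times, and genes under 20 UMIs over both libraries are not drawn. In MG the ratios of Axl and Spp1 lay on opposite sides of 0 in the regions, while those of Trem2, Tyrobp, Fcgr1, Fcgr3 and Fcer1g lay within the lines.

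Cells with several genes of the disease-associated state were few, as the low share of each gene alone makes likely. Of 1252 thinned transgenic frontal cortex MG cells, 12 held at least 2 of Cst7, Lpl, Spp1 and Axl (0.958%, 0.496 to 1.67), against 8 of 1805 wildtype cells (0.443%, 0.192 to 0.871). In midbrain these were 7 of 674 transgenic cells (1.04%) and 7 of 968 wildtype cells (0.723%). No thinned MG cell held all 4, and the intervals of the genotypes overlap in both regions. Trem2 and Tyrobp, each detected in nearly every MG cell, were found together in 1239 of 1252 transgenic and 1780 of 1805 wildtype frontal cortex MG cells, and in 660 of 674 transgenic and 933 of 968 wildtype midbrain MG cells.

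Between the regions, midbrain MG was set against frontal cortex MG within each genotype. In transgenic MG, 0 of the 10 genes were called higher in midbrain and 5 lower, against 14.7% of all genes higher and 20% lower. The 5 were Cst7 (log2 ratio, midbrain over frontal cortex, -0.95), Spp1 (-1.32), Axl (-0.66), Fcgr3 (-0.26) and Fcgr4 (-0.70). In wildtype MG, 4 were called higher in midbrain, against 19.0% of all genes: Lpl (0.46), Spp1 (1.71), Axl (2.08) and Fcgr4 (0.60). Cst7 (-0.45) and Fcgr3 (-0.36) were called lower in wildtype midbrain, against 16.3% of all genes. Fcgr3 and Cst7 were therefore lower in midbrain MG of both genotypes, and Fcgr4, Axl and Spp1 differed between regions in opposite directions in the genotypes. The Spp1 values again rested on single cells, and without the 5 highest cells they were 0.033 in transgenic and -0.11 in wildtype MG. With the cells that hold RNA of other types left out, Fcgr4 was at 0.22 in transgenic MG, from 34 midbrain and 20 frontal cortex UMIs, and Cst7 at 0.029 in wildtype MG. The 2 genotype comparisons and the 2 region comparisons share libraries, so they are the same 4 levels read in 2 ways.

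Macrophages held fewer cells, and most of their differences lay within counting error. In frontal cortex MAC, 8 of the 10 genes reached 20 UMIs over both libraries, and 1 was called higher in transgenic and 1 lower, against 21.7% of all 7187 genes higher and 31.2% lower. The higher one was Spp1, at 70.0 CPM in transgenic and 12.9 CPM in wildtype MAC, from 47 and 11 UMIs (log2 ratio 2.44, 1.47 to 3.54). Of the 47, 42 were in 5 cells, and cells with any Spp1 UMI numbered 10 of 85 in transgenic and 4 of 112 in wildtype MAC. The lower one was Fcgr4, at 13.4 CPM in transgenic and 17.6 CPM in wildtype MAC, from 9 and 15 UMIs (-0.39, -1.76 to 0.90), so the interval allows either direction. Trem2 was at 712 CPM in transgenic and 766 CPM in wildtype frontal cortex MAC (-0.11, -0.28 to 0.07). Tyrobp was at 2339 CPM in transgenic and 2258 CPM in wildtype, and Fcer1g at 2737 CPM in transgenic and 2450 CPM in wildtype (0.16, 0.07 to 0.25). Fcgr1 was at 226 CPM in transgenic and 271 CPM in wildtype, Fcgr3 at 599 CPM in transgenic and 603 CPM in wildtype, and Axl at 74.5 CPM in transgenic and 85.5 CPM in wildtype. Lpl had 3 transgenic and 13 wildtype UMIs and Cst7 had 1 transgenic and 0 wildtype UMIs, too few for a ratio; a count of 0 allows up to 3.51 CPM there (3 UMIs of the library's MAC total).

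In midbrain MAC, Trem2 was at 837 CPM in transgenic and 637 CPM in wildtype, a log2 ratio of 0.39 (0.22 to 0.56). The call was lost without the 5 highest cells, where the ratio was 0.095, and without cells holding RNA of other types, where it was 0.21. This was the reverse of its lean in frontal cortex MAC, and the difference between regions was 0.50 (0.26 to 0.74). After thinning, 35 of 45 transgenic and 95 of 117 wildtype midbrain MAC cells held Trem2 (77.8% and 81.2%), so the share of cells with a UMI did not differ in that direction. Lpl was called higher in transgenic midbrain MAC at 31.3 CPM against 16.9 CPM in wildtype (0.89, -0.14 to 1.92), and 10 of its 17 transgenic UMIs were in 1 cell. Fcgr4 was called lower at 22.1 CPM in transgenic and 27.5 CPM in wildtype (-0.31, -1.41 to 0.69). These 2 higher and 1 lower of 8 genes stand against 25.1% of all 7553 genes higher and 31.8% lower. Tyrobp was at 2123 CPM in transgenic and 1819 CPM in wildtype (0.22, 0.12 to 0.33), just under the threshold, and Axl was at 116 CPM in transgenic and 97.6 CPM in wildtype. Fcer1g was at 2393 CPM in transgenic and 2154 CPM in wildtype (0.15, 0.05 to 0.25). It was within 1.2 times, but its interval left out 0 in the same direction as in frontal cortex MAC. Fcgr1 was at 203 CPM in transgenic and 218 CPM in wildtype, and Fcgr3 at 479 CPM in transgenic and 491 CPM in wildtype, with intervals that span 0. Spp1 had 2 transgenic and 9 wildtype UMIs and Cst7 had 0 transgenic and 3 wildtype UMIs. Astrocyte markers in MAC were also unequal, at 402 CPM in transgenic and 130 CPM in wildtype frontal cortex and 313 CPM in transgenic and 917 CPM in wildtype midbrain. Endothelial markers were at 136 CPM in transgenic and 809 CPM in wildtype frontal cortex MAC, and choroid plexus markers at 1716 CPM in transgenic and 5367 CPM in wildtype midbrain MAC. Mural markers, of the cells in which Axl and Lpl are high, were at 501 CPM in transgenic and 140 CPM in wildtype midbrain MAC. The part of such RNA in the MAC ratios was not tested.

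Between regions, transgenic MAC had 3 of 9 genes called higher in midbrain and 2 lower, against 25.8% and 29.5% of all genes. The higher ones were Lpl (log2 ratio, midbrain over frontal cortex, 2.81, from 17 and 3 UMIs), Axl (0.64) and Fcgr4 (0.72). Fcgr4 rested on 12 and 9 UMIs, and its interval of -0.65 to 2.15 spans 0. The lower ones were Spp1 (-4.25, from 2 and 47 UMIs) and Fcgr3 (-0.32). Mural markers were at 501 CPM in transgenic midbrain and 64.0 CPM in transgenic frontal cortex MAC, higher in midbrain as Axl and Lpl were, and their part was not tested. Wildtype MAC had 1 of 9 called higher, Fcgr4 (0.65, from 31 and 15 UMIs), and 5 lower, against 23.3% and 29.4% of all genes. The 5 were Trem2 (-0.27), Tyrobp (-0.31), Spp1 (-0.69, from 9 and 11 UMIs), Fcgr1 (-0.31) and Fcgr3 (-0.30), and 4 of them lay near the threshold of 1.2 times. In wildtype MAC the intervals of Fcgr4 (-0.29 to 1.64) and Spp1 (-2.14 to 0.72) span 0. Fcgr3 was below its frontal cortex level in midbrain MAC of both genotypes, but with thinned counts the ratio in transgenic MAC was 0.052, so its direction there is not settled.

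Across the deposited labels, 10 labels had at least 20 cells in each library and were ordered by the median CPM of the 4 libraries. Trem2 was highest in MG (median 2330, range 2181 to 2539 CPM) and second in MAC (739, 637 to 837), each above the next label in every library. Tyrobp was at a median of 2191 CPM in MAC and 2093 CPM in MG, which overlapped over the libraries, and then came MNC (601, 13.6 to 1387). Fcer1g was highest in MAC (2421, 2154 to 2737), above MG (1720, 1647 to 1917), with MNC next (531). Fcgr1 was higher in MG (314, 296 to 338) than in MAC (222, 203 to 271), and so was Fcgr3 (733, 661 to 864 in MG and 545, 479 to 603 in MAC), without overlap. Fcgr4 had medians of 19.8 CPM in MAC, 14.3 CPM in MG and 10.5 CPM in MNC, which overlapped. In the remaining 7 labels the median of Fcgr4 was at most 0.961 CPM.

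The genes of the disease-associated state had other main sources. Cst7 was highest in MNC (median 54.2, range 35.1 to 68.2 CPM), whose cells also held lymphocyte markers, at 2425 CPM in transgenic and 2744 CPM in wildtype frontal cortex and 1535 CPM in transgenic and 1389 CPM in wildtype midbrain. In midbrain they held more neutrophil markers, at 6324 CPM in transgenic and 14079 CPM in wildtype. MG came second (12.1, 10.1 to 20), above every other label, and MAC had 0 to 2.66 CPM. Lpl was highest in the cells labelled OPC (79.1) and SMC (60.6), which overlapped, then MG (21.8) and MAC (16.0). Spp1 was highest in the cells labelled OPC, at 5563 CPM in transgenic and 2481 CPM in wildtype midbrain and at 576 CPM in transgenic and 1627 CPM in wildtype frontal cortex. Of the 169 Spp1 UMIs in transgenic frontal cortex, 166 were in 5 of 35 cells. In midbrain the cells labelled OPC held fibroblast markers at 11043 CPM in transgenic and 11515 CPM in wildtype. Their OPC markers summed to 1058 CPM in transgenic and 624 CPM in wildtype, with Sox10 at 0 in both. In frontal cortex fibroblast markers were at 4788 and 4964 CPM and OPC markers at 6185 and 4220 CPM. The markers thus go against the label in midbrain, and OPC is used only as the deposited name. Axl was highest in pericytes (PC, median 235, range 197 to 247 CPM), above all other labels, followed by SMC (108), MAC (91.6), OPC (79.0) and AC (57.5), each of which overlapped its neighbour. MG was below these 5 labels for Axl in every library.

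**Figure D4:**
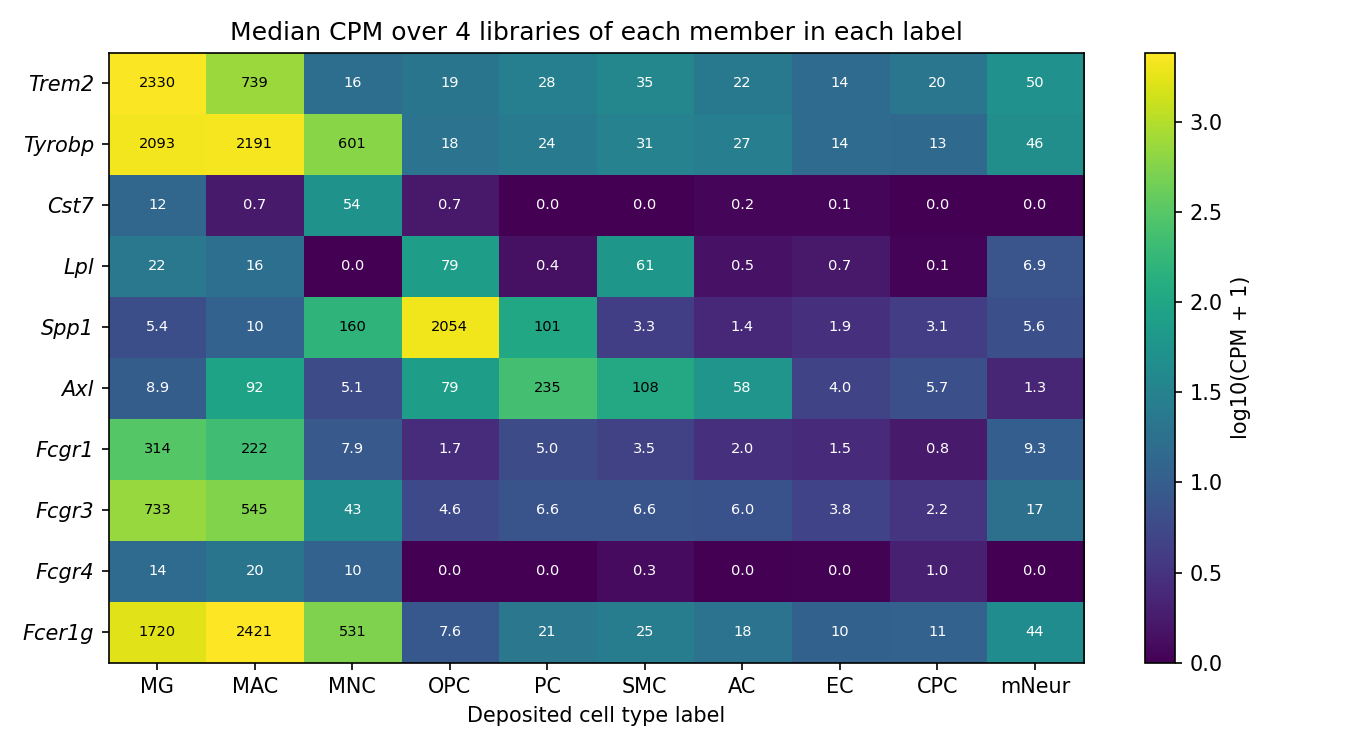
Median CPM over the 4 libraries of each gene (rows) in each deposited label with at least 20 cells in every library (columns), coloured by log10(CPM + 1), with the median printed in each cell. Trem2, Tyrobp, Fcgr1, Fcgr3 and Fcer1g were highest in MG and MAC, Cst7 in MNC, Spp1 in the cells labelled OPC and Axl in PC.

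Low levels of the microglial genes in other labels need to be read against free RNA. In EC, 2.65% to 5.99% of thinned cells held a Trem2 UMI, 2.52% to 7.14% a Tyrobp UMI and 2.15% to 3.83% an Fcer1g UMI, while in MG the shares were at least 98.9% for Trem2, 97.4% for Tyrobp and 97.8% for Fcer1g. In AC the Trem2 share was 3.83% to 7.96%, of the same order as in EC. These EC and AC shares are taken as background and not as expression. Axl was different, since it was in 13.9% to 20.3% of thinned AC cells and in 40.6% to 56.3% of thinned PC cells, well above its share in EC.

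The likeness of patterns was measured as Pearson's r of log2(CPM + 10) over 38 groups of label, region and genotype with at least 50 cells, from 13 labels that share 4 libraries. It is a description, since groups of a library share its depth and its free RNA. Trem2 was most like C1qc (r = 0.987), C1qb and Csf1r, which encode complement chains and the CSF1 receptor. Tyrobp was most like Spi1 (0.988), Cd53 and Laptm5, and Fcer1g most like Spi1 (0.988), Cd300c2 and Cd68. Fcgr1 was most like P2ry6 (0.993), Tbxas1 and Aif1, and Fcgr3 most like Pld4 (0.993), Aif1 and Cd33. Fcgr4 was most like Themis2 (0.964), Cd48 and Phf11a. Cst7 went with Il7r (0.969), Arhgap27os3 and H2-Oa, the first of which encodes a cytokine receptor of lymphocytes. Lpl was most like Fgl2 (0.876), Errfi1 and Gadd45b, Spp1 like the fibroblast gene Dcn (0.867), Ctsk and Scarf2, and Axl like Adamtsl5 (0.927), Parp3 and Colec12. Among the 10 genes, the closest pair was Tyrobp and Fcer1g (r = 0.992), while Trem2 with Axl gave 0.01 and Trem2 with Spp1 -0.08.

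The pathway around these genes was read from 9 lists, whose counts stand against the shares of all genes called in MG, 17.1% higher and 15.5% lower in frontal cortex and 13.3% higher and 21.8% lower in midbrain. Of the 37 genes of TREM2 and ITAM signalling, 35 reached 20 UMIs in frontal cortex MG, of which 5 were called higher and 2 lower, and 36 did in midbrain MG, again with 5 higher and 2 lower. Those shares are near or below the shares of all genes called, and the medians were -0.08 and 0.05. The genes past 1.2 times in both regions with intervals that leave out 0 were Treml2, a TREM-like receptor gene (log2 ratio 0.46 in frontal cortex and 0.64 in midbrain), Clec5a, which encodes a TYROBP-coupled lectin (0.39 and 0.48), and Hcst, which encodes the adaptor DAP10 (0.34 and 0.32). Clec5a was at 90.1 CPM in transgenic and 68.7 CPM in wildtype frontal cortex MG, and at 96.6 CPM in transgenic and 69.2 CPM in wildtype midbrain MG. Siglech, another TYROBP-coupled receptor gene, was at 1456 CPM in transgenic and 1629 CPM in wildtype frontal cortex MG and at 1258 CPM in transgenic and 1226 CPM in wildtype midbrain MG. Sirpa, which encodes an inhibitory receptor for CD47, had log2 ratios of -0.15 in frontal cortex and -0.13 in midbrain.

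Of the lipid ligands of TREM2, 3 of 4 were called higher and 0 lower in transgenic frontal cortex MG (17.1% and 15.5% of all genes). In transgenic midbrain MG 1 of 5 was higher and 3 were lower (13.3% and 21.8% of all genes). At 1.5 times 2 were higher and 0 lower in frontal cortex MG (7.84% and 4.22% of all genes). In midbrain MG 0 were higher and 2 lower at 1.5 times (3.68% and 10.4% of all genes). The log2 ratios reached 2.67 in frontal cortex and -1.95 in midbrain. Apoe was at 827 CPM in transgenic and 587 CPM in wildtype frontal cortex MG (log2 ratio 0.49, 0.45 to 0.54), and at 841 CPM in transgenic and 1701 CPM in wildtype midbrain MG (-1.02, -1.06 to -0.97). Apoe was far higher in MAC, at 41838 to 48668 CPM over the 4 libraries, and astrocytes also express it, as they do Axl. In MG Apoe differed in the same direction as the summed astrocyte markers, with log2 ratios of 0.94 and -0.92. Other sums did so too, among them those of OPC (0.87 and -1.31), neuronal (0.73 and -0.92) and choroid plexus markers (0.42 and -0.87). Endothelial, mural, fibroblast, monocyte, oligodendrocyte and erythroid sums did not. The part of such RNA was not tested. Anxa5, which encodes a protein that binds phosphatidylserine, was within 1.2 times in both regions (0.20 and -0.01).

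Of 6 genes of the first stage of the disease-associated state, 3 were called higher in frontal cortex MG and 0 lower (17.1% and 15.5% of all genes), and in midbrain MG 0 were higher and 1 lower (13.3% and 21.8%). Apoe is in this list too. Fth1, the ferritin heavy chain gene, was at 3832 CPM in transgenic and 2767 CPM in wildtype frontal cortex MG, and at 3424 CPM in transgenic and 3449 CPM in wildtype midbrain MG. Ctsd, which encodes the lysosomal protease cathepsin D, stayed within 1.2 times in both regions (log2 ratios 0.01 and 0.04). Of the 17 genes tested of the second stage in frontal cortex MG, 8 were called higher and 2 lower (17.1% and 15.5% of all genes), with a median of 0.20. At 1.5 times 5 of them were higher and 0 lower (7.84% and 4.22% of all genes), and the largest log2 ratio was 2.67. The lipid ligands of TREM2 had the same largest value there, and in midbrain MG both lists had a largest value of 0.45. The lists are thus not separate readings. Of the 15 tested in midbrain MG, 1 was higher and 3 lower (13.3% and 21.8% of all genes), with a median of 0.03. At 1.5 times 0 were higher and 3 lower there (3.68% and 10.4% of all genes). The best expressed genes of the second stage, Ctsz and Cd9, were within 1.2 times in both regions (0.19 and 0.09 for Ctsz, 0.14 and 0.05 for Cd9). Ank, which encodes a pyrophosphate transporter, was lower in transgenic MG of both regions, by log2 ratios of -0.32 and -0.67.

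Of 8 other Fc receptor genes and FcR gamma partners tested in frontal cortex MG, 1 was called higher and 2 lower (17.1% and 15.5% of all genes), and in midbrain MG 1 was higher and 1 lower (13.3% and 21.8%). The higher one in frontal cortex, named after its values were seen, was Cd300lf, at 6.38 CPM in transgenic and 1.83 CPM in wildtype MG from 67 and 26 UMIs (log2 ratio 1.80, 1.13 to 2.52). Fcgr2b, which encodes the inhibitory IgG receptor, was at 247 CPM in transgenic and 224 CPM in wildtype frontal cortex MG (0.14, 0.07 to 0.22), and at 206 CPM in transgenic and 201 CPM in wildtype midbrain MG (0.03, -0.07 to 0.14). The neighbour and paralog of Fcgr4 thus did not share its ratio in frontal cortex. Fcrls, an Fc receptor-like gene of microglia, had log2 ratios of -0.01 in frontal cortex and 0.03 in midbrain. The relatives of Axl also stayed within 1.2 times: Mertk was at 526 CPM in transgenic and 622 CPM in wildtype frontal cortex MG and at 604 CPM in transgenic and 549 CPM in wildtype midbrain MG, and the ligand gene Pros1 had log2 ratios of -0.05 and 0.20.

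Among the partners of lipoprotein lipase, 3 of 6 were called higher and 0 lower in frontal cortex MG (17.1% and 15.5% of all genes), and in midbrain MG 0 of 7 were higher and 3 lower (13.3% and 21.8%). Lipa, the lysosomal acid lipase gene, had log2 ratios of 0.15 and 0.20, and Lmf1, which encodes a factor needed for lipase folding, -0.15 and -0.08. Of 8 osteopontin receptor genes, 4 were called higher in frontal cortex MG (17.1% of all genes) and 2 in midbrain MG (13.3%), with 0 lower in either. The largest ratios, named after they were seen, were of sparse genes: Itga4 at 1.39 (0.48 to 2.36) in frontal cortex from 31 transgenic and 16 wildtype UMIs, and Cd44 at 1.48 (0.42 to 2.65) in midbrain from 26 transgenic and 11 wildtype UMIs. The best expressed ones, Itgb5 (-0.01 and 0.01) and Itgb1 (-0.03 and 0.05), did not differ by 1.2 times. None of the 7 cystatin F targets and related cystatins was called in either region. Cst3, the cystatin C gene, had log2 ratios of -0.04 and 0.00, and Ctss, the cathepsin S gene, 0.10 and 0.18. The cathepsin genes that cystatin F can act on thus stayed within 1.2 times in MG where Cst7 itself was called higher in frontal cortex.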

How the data were processed

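UMI counts were deposited as 1 matrix of genes by cells for each region, and the deposited cell tables give each cell's library, cluster, cell type label, total count, gene count and percent of mitochondrial UMIs, as computed by the authors. Cell Ranger 3.0.0, Seurat 3.1.5 and the genome mm10 are named per the submitters' processing notes. The annotation, the strand used in counting, the cell filters and any removal of doublets are not given in the sources used here. No doublet caller was run, and all deposited cells were used.

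UMIs were summed over the cells of each label and library and written as CPM of that sum. The 4 libraries held 30712684 (transgenic frontal cortex), 52849211 (wildtype frontal cortex), 33168117 (transgenic midbrain) and 56588233 (wildtype midbrain) UMIs, of which MG held 10500221, 14227370, 6483156 and 7658431. Since each group is 1 library, tests were not made. Log2 ratios have exact Clopper-Pearson 95% intervals conditional on the sum of both counts, levels exact Poisson and shares exact binomial ones, and the difference of 2 log2 ratios a normal interval from the counts. All cover counting error only. A gene was called at 1.2 times with at least 20 UMIs over both libraries, by the same rule for all genes. Shares were taken after thinning cells to 3000 UMIs, which leaves out shallower cells and kept 1252 of 1445 transgenic and 1805 of 1912 wildtype frontal cortex MG cells, and 674 of 806 transgenic and 968 of 1158 wildtype midbrain MG cells.

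All 10 genes were named. Of each pathway list the text names the 2 with the highest CPM in wildtype frontal cortex and up to 4 past 1.2 times in the same direction in both regions with intervals that leave out 0, and for the pattern over labels the 3 genes most like each member. The members and the lists were chosen with earlier results of these data known. Alternatives were TMM factors (edgeR 4.0.16) and size factors (DESeq2 1.42.0) as scaling only, the mean of per-cell CPM, thinned counts, a quality filter, totals without mitochondrial and ribosomal protein genes, leaving out cells with at least 4 UMIs of markers of other types, leaving out the 5 highest cells per gene, weighting clusters alike, and 1.5 times. Dropping the minimum of 20 UMIs was a further alternative. Scripts ran in Python 3.11.15 (numpy 2.4.6, scipy 1.17.1, pandas 2.3.3) and R 4.3.3 and were tested on simulated data. No column of another sample was present.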

Additional observations from a re-analysis of the deposited data

Results flagged for a closer look

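The genotype ratios of 2 genes in MG pointed in opposite directions in the regions, and each ratio's counting interval left out 0. For Axl the log2 ratio (transgenic over wildtype) in midbrain minus that in frontal cortex was -2.73 (-3.43 to -2.04), from 6.94 CPM in transgenic and 14.2 CPM in wildtype midbrain MG and 11 CPM in transgenic and 3.37 CPM in wildtype frontal cortex MG. The summed astrocyte markers in MG differed in the same directions (log2 ratios -0.92 in midbrain and 0.94 in frontal cortex), and without cells holding RNA of other types the Axl ratio in frontal cortex was 0.70, from 10 transgenic and 16 wildtype UMIs. For Spp1 the difference was -3.03 (-3.91 to -2.15), and it rested on a few cells with many UMIs in transgenic frontal cortex and wildtype midbrain. With 1 library per group neither difference was tested against the spread between mice.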

How the results depend on the processing

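No paired analysis was possible because each group is 1 library and the cell tables name no mouse, and for the same reason no replicate could be left out. Of 711 ratios of the 10 genes recomputed under the alternatives, 620 stayed within their counting interval. Some of these could not move: dropping the minimum of UMIs leaves a ratio unchanged, and so does weighting clusters alike in MAC. MAC held 1 cluster in each region. The 620 therefore overstate how far the ratios were put to a check. The sign differed in 37 of the 711, of which 30 were of genes within 1.2 times and 7 were of called genes, and the cause was not tested. The 7 follow. Without the 5 highest cells, Spp1 was at 0.24 in midbrain MG (transgenic over wildtype), and at 0.033 in transgenic and -0.11 in wildtype MG (midbrain over frontal cortex). Without cells holding RNA of other types, midbrain over frontal cortex MG gave 0.22 for Fcgr4 in transgenic, and 0.029 for Cst7 and -0.36 for Spp1 in wildtype. Thinned counts gave 0.052 for Fcgr3 in transgenic MAC (midbrain over frontal cortex).

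Shares of all genes called were computed for the main rule and, in MG between genotypes, at 1.5 times. They were not computed under the other alternatives, so the counts here have no such background. Counts of called genes between genotypes in MG stayed at 4 or 5 in frontal cortex and 3 or 4 in midbrain under all alternatives. Which genes were called could change: without the 5 highest cells Spp1 was called in neither region (0.10 and 0.24). In frontal cortex MAC 2 genes were called, against 4 by per-cell means and 1 under the quality filter, without the 5 highest cells and at 1.5 times. In midbrain MAC 3 were called, against 5 by per-cell means and 1 without cells of other RNA and at 1.5 times. Between regions, transgenic MG gave 5 and 2 without cells of other RNA, and wildtype MG 6 and 3 at 1.5 times. Transgenic MAC gave 5, against 2 when thinned, 3 without cells of other RNA and 3 without the 5 highest cells. Wildtype MAC gave 6, against 2 with TMM factors, thinned, without cells of other RNA and at 1.5 times, and 3 by per-cell means and without the 5 highest cells.

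In frontal cortex MG the log2 ratio ranged over the alternatives from 1.31 to 1.99 for Fcgr4, 0.87 to 1.61 for Lpl, 0.45 to 1.04 for Cst7, 0.70 to 1.83 for Axl and 0.10 to 1.29 for Spp1. In midbrain MG it ranged from 0.04 to 0.43 for Fcgr4 and 0.42 to 0.93 for Lpl. The filter on RNA of other types kept only 264 of 1445 transgenic and 516 of 1912 wildtype frontal cortex MG cells. Its cut was a count of UMIs and not a share of each cell's total, so it also selected for shallow cells wherever it was used. The filter took in astrocyte, endothelial, mural, oligodendrocyte and neuronal markers only, and not those of choroid plexus or erythroid cells. At the depth of MAC, the intervals of Fcgr4 and Axl span 0 in both regions and give no direction between genotypes.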

Other observations

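In MAC the pathway lists gave few calls in common between the regions. Ccl6, a chemokine gene of the second stage of the disease-associated state, was at 171 CPM in transgenic and 80.8 CPM in wildtype frontal cortex MAC (log2 ratio 1.08, 0.64 to 1.54) and at 177 CPM in transgenic and 109 CPM in wildtype midbrain MAC (0.70, 0.30 to 1.09). Cd36, which encodes a scavenger receptor for lipids, was at 295 CPM in transgenic and 241 CPM in wildtype frontal cortex MAC and at 313 CPM in transgenic and 244 CPM in wildtype midbrain MAC. Plin2, the gene of a lipid droplet coat protein, was at 241 CPM in transgenic and 425 CPM in wildtype frontal cortex MAC, and at 312 CPM in transgenic and 269 CPM in wildtype midbrain MAC. Fcgr2b, the inhibitory Fc receptor gene, had log2 ratios of 0.14 in frontal cortex and -0.28 in midbrain MAC. Of 34 tested genes of TREM2 and ITAM signalling, 8 were called higher and 12 lower in frontal cortex MAC, and of 35 in midbrain MAC 7 were higher and 13 lower, close to the shares of all genes called.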
